A study of Drosophila melanogaster with 9 samples.

Results

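Recurrent crosslink sites of the Mei-P26 NHL domain were taken as the nucleotides at which a cDNA ended in at least 2 of 3 NHL libraries and at which no cDNA ended in any full-length or control library. Of 68832 crosslinked nucleotides in the series, 946 met this rule after positions in mei-P26 and Act5C had been left out. The sites were therefore chosen by their own cDNA counts, and their presence with the NHL domain and absence elsewhere describe the choice and are not a finding. They were set against 366 sites recurrent with full-length Mei-P26 only, 319 sites recurrent with both baits and 32158 NHL-only positions seen in 1 library.

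The data are iCLIP2 crosslinks from Drosophila Schneider cells (SL2 by the cell line label, S2R+ by the growth protocol), a hemocyte-like line that lacks most germline transcripts. Cells of the NHL group were transfected for 48 h with 15 µg of a plasmid encoding the FLAG-tagged NHL domain of Mei-P26 (amino acids 908 to 1206), cells of the full-length group with the same amount of a plasmid encoding FLAG-tagged full-length Mei-P26 (pAC5.1 backbone), and each group gave 3 libraries. The 3 control libraries came from non-transfected cells by their labels and by the methods of the study, although the deposited treatment protocol names mutated baits with weakened RNA binding as the control. Immunoprecipitation with anti-FLAG antibody or control serum followed UV crosslinking and digestion with 10 U RNase. Both baits were overexpressed from transient plasmids in a line that is not the germline tissue in which Mei-P26 acts.

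Mei-P26 is a TRIM-NHL protein that controls differentiation and growth of germline cells. Its NHL domain folds into a propeller that binds single-stranded, uridine-rich RNA. In iCLIP, UV light joins protein to RNA and reverse transcription tends to stop at the adduct, so that the end of a cDNA marks the crosslinked nucleotide. Small nucleolar RNAs (snoRNAs) guide the modification of ribosomal RNA, H/ACA snoRNAs pseudouridylation and C/D snoRNAs ribose methylation, and many lie in introns of protein-coding genes. Small Cajal body RNAs (scaRNAs) do the same for small nuclear RNAs (snRNAs), the RNA parts of the splicing machinery.

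Short sequences that the study lists for genes crosslinked with both baits show the kind of uridine-rich element it assigns to Mei-P26, and among the entries used here 27 genes host NHL-only sites, 20 of them with a motif. Of the 10 with at least 4 NHL-only sites, 6 hold a motif and 4 hold none, and 5 of the 6 are given here because their listed sequence is longer than the motif itself. Capitals mark a match to 1 of the 4 motifs of the study, written as DNA with N for any base, and the listed strand alone was searched. The motif TTTTACN was searched first, then the motif TTTTANA, after it the motif TTTTNCA, and in the end the motif TTTTTTT. Their place relative to the NHL-only sites was not analysed here, and a match is a description only. The study lists these sequences as potential binding sites near its crosslinks, so they were picked for such elements. The share with a motif over its whole list was not computed here. Thus 20 of 27 is not read as a trait of genes with NHL-only sites.
RpS20: tTTTTACA
RpS7: ttTTTTACA
RpL13A: ttTTTTAAAa
RpL8: ttaTTTTGCA
RpS5a: tttttTTTTATAca
RpS20 carried 22 NHL-only sites, 18 of them in a snoRNA within its span. RpS7 carried 7, RpL13A carried 5, and RpL8 and RpS5a carried 4 each. The sequence listed for RpLP1 (tttttaat), which carried 9 sites, holds none of the 4 motifs.

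NHL libraries held 4321, 7947 and 40032 cDNAs, full-length libraries 14685, 1878 and 21831, and control libraries 1252, 1160 and 849. Replicate 3 thus gave most of the NHL cDNAs, and full-length replicate 2 was shallow and stood apart from the other full-length libraries in several measures below. Of 15 hemocyte-like markers 11 had a cDNA, with Hml, NimC1, He and Sr-CI at 0, and of 8 germline markers aub alone had any. Summed over the hemocyte-like list, the rate was 41.5 to 73.9 cDNAs per 10000 in NHL, 63.9 to 116 in full-length and 47.1 to 128 in control libraries.

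The rule was met by few positions. Of 37424 positions with a cDNA in at least 1 NHL library, 1887 had one in at least 2, and 906 of these also had a full-length or control cDNA. A further 35 lay in mei-P26 (32) or Act5C (3). Among the 946 sites, 95 were present in all 3 NHL libraries and 851 in 2. Replicates 2 and 3 shared 515 sites that replicate 1 lacked, replicates 1 and 3 shared 286 that replicate 2 lacked, and replicates 1 and 2 shared 50 that replicate 3 lacked. The sites were thin: the median was 2 NHL cDNAs over the 3 libraries, 497 sites had 1 cDNA in each of 2 libraries, 30 had at least 10, and the highest count was 38. They held 11.9% of the cDNAs of NHL replicate 1 (95% exact interval 10.9% to 12.9%), 11.2% of replicate 2 (10.5% to 11.9%) and 4.35% of replicate 3 (4.15% to 4.55%), intervals that cover counting error only.

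Part of the positions chosen on some NHL libraries recurred in the library left out of the choice. Of 145 positions present in NHL replicates 1 and 2 and absent from full-length and control, 95 (65.5%, 57.2% to 73.2%) had a cDNA in replicate 3, against 10.4% (9.75% to 11.1%) of 7686 such positions present in 1 of the same libraries. In replicate 2 the shares were 24.9% of 381 and 2.00% of 28311 positions, and in the shallow replicate 1 they were 15.6% of 610 and 1.12% of 30021. Positions in 2 libraries can be better covered than positions in 1, so these shares are descriptions, and their intervals cover counting error only. Recurrence was not particular to NHL libraries. Before absence was required, 24.3%, 8.60% and 32.1% of recurrent NHL positions had a cDNA in full-length replicates 1, 2 and 3. Recovery in replicate 3 reached 35 of 41 snoRNA or scaRNA positions and 9 of 10 tRNA positions, against 24 of 46 protein-coding and 5 of 14 mitochondrial mRNA positions. The peak caller of the study marked 448 sites (47.4%) as a peak in at least 1 NHL library and 171 (18.1%) in at least 2. The peaks were called on the same NHL libraries that chose the sites, so they are not separate support. The share of peaks over all NHL positions was not computed here.

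By RNA class, 420 sites (44.4%, 41.2% to 47.6%) lay in nuclear protein-coding genes outside small RNA genes, and 278 (29.4%, 26.5% to 32.4%) lay in snoRNA, scaRNA or snRNA genes. The small RNA share was 3.28% (1.71% to 5.66%) among full-length-only sites, 26.3% (21.6% to 31.5%) among sites of both baits and 4.83% (4.59% to 5.07%) among NHL-only positions of 1 library. snoRNA and scaRNA genes held 226 sites, snRNA genes 52, nuclear tRNA genes 48, mitochondrial genes 131, other non-coding genes 19 and rRNA genes 11, while 39 lay in no annotated gene. A site in both a small RNA and its host gene was counted for the small RNA. Of the 278 sites, 205 (73.7%) also lay in a protein-coding gene, so that with protein-coding genes counted first the share was 7.72%. These sites share genes and libraries, so the shares are descriptions without a test. In its list of genes shared by both baits, the study left out loci crosslinked in snoRNA, scaRNA or snRNA sequences, which it treated as known contaminants. Loci of mitochondrially encoded RNAs were left out as well. Sites of these classes are therefore described here and are not called targets of the NHL domain.

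**Figure D1:**
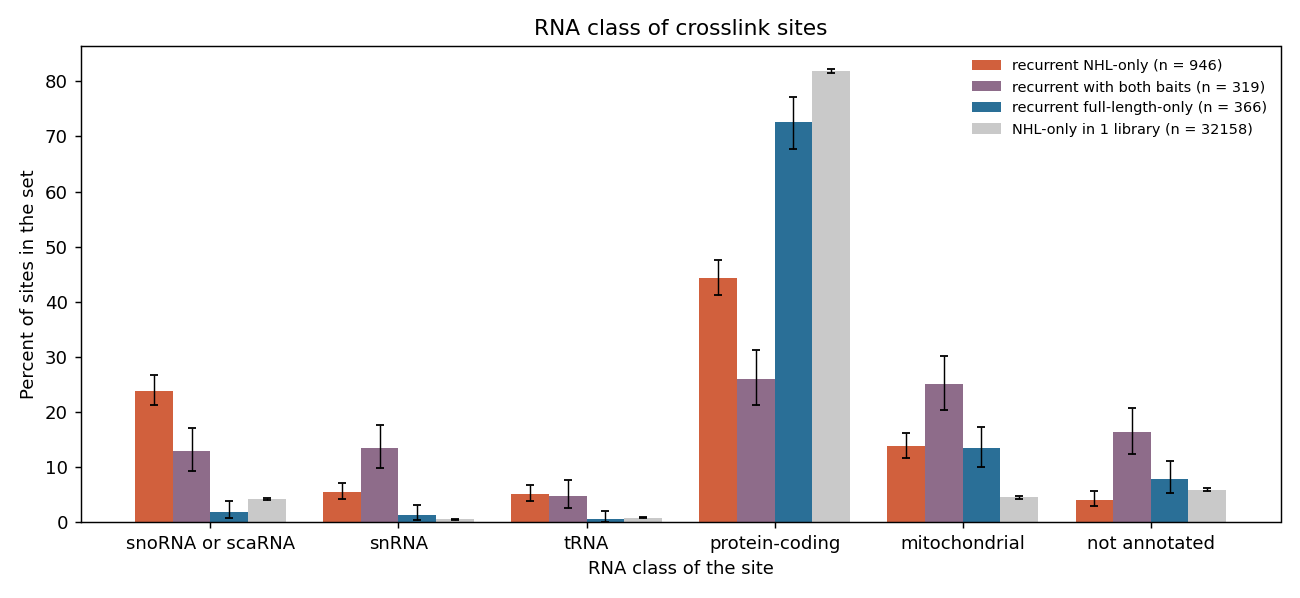
Percent of sites in each RNA class (y axis) for recurrent NHL-only sites, sites recurrent with both baits, recurrent full-length-only sites and NHL-only positions of 1 library; bars are shares of the set and whiskers exact 95% intervals for counting error. snoRNA or scaRNA genes hold 23.9% of NHL-only and 1.91% of full-length-only sites, and protein-coding genes hold 44.4% and 72.7%.

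At positions other than the sites, snoRNA, scaRNA and snRNA genes took a larger share of the cDNAs in NHL than in full-length libraries, while NHL and control libraries overlapped. With the sites left out, snoRNA, scaRNA and snRNA genes took 1555, 1537 and 1099 of every 10000 cDNAs in NHL libraries, 302, 1001 and 296 in full-length libraries and 831, 853 and 1296 in control libraries. All NHL libraries were above all full-length libraries, and full-length replicate 2 lay within the control range. tRNA genes took 165, 339 and 128 per 10000 in NHL, 80.4, 160 and 62.3 in full-length and 152, 155 and 247 in control libraries, and the groups overlapped. In these bulk data, more RNA of a class and more crosslinks per RNA cannot be told apart.

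The snoRNA sites covered both families. H/ACA snoRNAs held 102 sites in 37 genes with 476 NHL cDNAs, C/D snoRNAs 82 sites in 33 genes with 319 cDNAs, other snoRNAs 39 sites in 13 genes and scaRNAs 3 sites in 2 genes. The site with the most cDNAs of all lay in the H/ACA snoRNA snoRNA:Psi28S-2622, at nucleotide 37 of 140 (chromosome 3L, position 1488942, plus strand), with 8, 2 and 28 cDNAs in the NHL libraries. The C/D snoRNA snoRNA:Me28S-C2645a, encoded in the snoRNA host gene Uhg3, had 3, 11 and 8 cDNAs at nucleotide 37 of 75 (2L, 20647853, plus strand) and 1, 2 and 8 at the next nucleotide. snoRNA:Me18S-A1806 had 1, 2 and 11 cDNAs at nucleotide 46 of 78 (3L, 7639762, plus strand). Replicate 3 had the highest count at most of these sites, and it is also the deepest library.

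snoRNA:Psi28S-2562, an H/ACA snoRNA of 135 nucleotides in RpS20, held 18 sites with 14, 13 and 91 cDNAs in the NHL libraries. At nucleotide 30 (3R, 20822955, plus strand) there were 2, 2 and 16 cDNAs, and at nucleotide 82 (3R, 20823007) 1, 1 and 12. The site with most cDNAs assigned to RpS20 itself, with 4, 7 and 17, was 1 nucleotide before the 5′ end of this snoRNA (3R, 20822925). Across all genes, 16 sites outside small RNA genes lay within 10 nucleotides before the 5′ end of one, 11 of them at a distance of 1 to 3 nucleotides, and 0 lay as near after a 3′ end. A cDNA that ran to the 5′ end of a small RNA was not told apart from one that stopped at a crosslink. These counts are therefore not taken as a preference of the NHL domain.

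Within H/ACA snoRNAs, cut from 5′ to 3′ into 5 bins of equal length, 38 of 102 sites lay in bin 2 and 31 in bin 4, with 23 in bin 3, 9 in bin 1 and 1 in bin 5. C/D sites were found earlier along the shorter RNA, with 17, 30, 29, 6 and 0 of 82 sites in bins 1 to 5. NHL-only positions of 1 library had a similar profile in C/D snoRNAs (27.1%, 28.3%, 34.3%, 9.76% and 0.476%), and a flatter one in H/ACA snoRNAs (108, 160, 181, 173 and 12 of 634). The full-length-only set had 4 H/ACA and 2 C/D sites, too few for a profile. A read needs RNA on the 3′ side of its site, so low counts in bin 5 are not taken as a preference.

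Nuclear snRNA genes held 52 sites in 12 genes. 7SK, which restrains the transcription elongation factor P-TEFb, held 13 sites. U12 and U11 of the minor spliceosome held 7 and 2 sites, and U7, which acts in histone mRNA 3′ end processing, held 7. snRNA:LU held 5, U4:39B and U5:63BC 5 each and U1:82Eb 4. The snRNA site with the most cDNAs was in U7 at nucleotide 22 of 71 (3L, 3593844, plus strand), with 0, 6 and 4 cDNAs. RNase MRP RNA, which cleaves precursor ribosomal RNA, had 3, 1 and 11 cDNAs at nucleotide 313 of 382 (3R, 23730117, minus strand) and 4 sites in all, and RNase P RNA, which trims tRNA precursors, had 2.

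Sites in nuclear tRNA genes clustered around the middle of the molecule, where the anticodon loop lies. Of 48 sites in 39 tRNA genes, 21 lay in bin 3 and 17 in bin 4, against 1 in bin 1 and 4 in bin 2, and 5 lay in bin 5. In windows chosen after the positions had been seen, nucleotides 32 to 40 held 20 sites (41.7%) and nucleotides 54 to 62 held 11 (22.9%). The NHL-only positions of 1 library lay slightly further along, with 34.9% in bin 3 and 42.2% in bin 4. tRNA:Asn-GTT-1-4, within an EcR gene span, had 2, 10 and 12 cDNAs at nucleotide 37 of 74 (2R, 6162060, minus strand), and tRNA:Lys-TTT-1-1 had 3, 2 and 10 at nucleotide 36 of 73 (2L, 8290762, plus strand). Of the tRNA sites 18 of 48 (37.5%) had no full-length or control cDNA within 20 nucleotides, against 37 of 226 (16.4%) in snoRNA or scaRNA genes. This was not particular to tRNA genes, since the share was 36.4% of 11 sites in rRNA genes and 33.3% of 39 sites in no annotated gene. Of the 30 host genes without any full-length or control cDNA, 17 were tRNA genes. The share of all genes, or of all tRNA genes, without such a cDNA was not computed here, so this count is a description only. tRNA genes with identical copies cannot be told apart by their reads, so the copy named is uncertain.

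**Figure D2:**
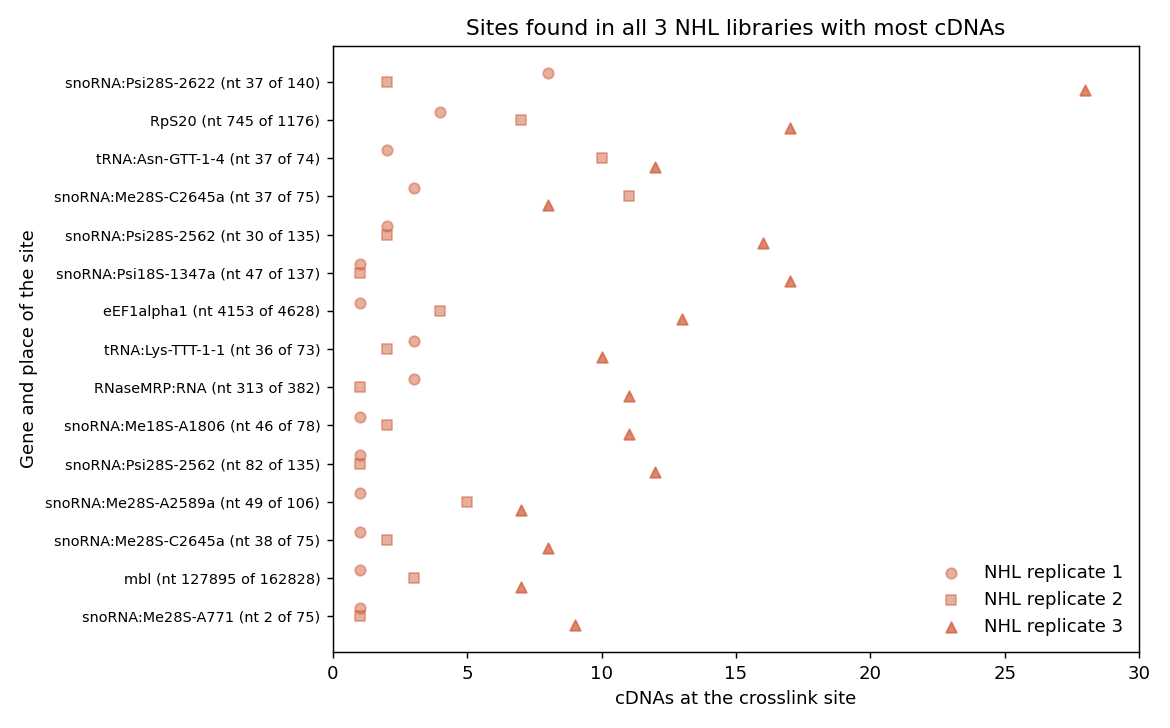
cDNAs in each NHL library (x axis) at the 15 sites with most cDNAs among the 95 present in all 3 NHL libraries; each row is a site with its gene and its place from the 5′ end, and symbols are the replicates. Counts run from 1 to 28 and 9 rows are snoRNA sites.

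In nuclear protein-coding genes the sites leaned towards the 3′ end, less so than full-length-only sites. Place was measured along the annotated gene span, introns included. Of 417 sites with a known place, 51.1% (46.2% to 56.0%) lay in bin 5, at the 3′ end of the gene, against 76.3% (70.7% to 81.3%) of 262 full-length-only sites, 57.8% (46.5% to 68.6%) of 83 sites of both baits and 53.8% of 25667 NHL-only positions of 1 library. The median distance to the 3′ end was 370 nucleotides for NHL-only and 178.5 nucleotides for full-length-only sites, in genes of median length 1686 and 4147. Ribosomal protein genes held 236 of the 417 sites, and 39.4% of these were in bin 5, against 66.3% of 181 sites in other genes. In full-length-only sites these shares were 52.4% of 42 and 80.9% of 220.

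Ribosomal protein genes held many of the sites. Of 86 with any cDNA, 73 carried sites, beside 424 host genes among all 6780 genes with any cDNA. They held 303 of the 946 sites with 1019 NHL cDNAs, intron-encoded snoRNAs included. The same genes held 44 of the 366 full-length-only sites and 61 of the 319 sites of both baits. Among sites in 1 protein-coding gene and no other gene, ribosomal protein genes held 236 of 417 NHL-only sites. The like counts were 42 of 262 full-length-only sites, 55 of 83 sites of both baits and 3000 of 25667 NHL-only positions of 1 library. RpS20 carried 22 sites, 18 of them in its snoRNA:Psi28S-2562, RpS16 13, RpS28b 11, RpLP1 and RpL15 9 each. In these genes 17 of 236 sites (7.20%, 4.25% to 11.3%) lay within 50 nucleotides of the annotated 5′ end, against 0 of 42 full-length-only sites (upper limit 8.41%), 0 of 55 sites of both baits (6.49%) and 3.47% of 3000 NHL-only positions of 1 library. The interval of the positions of 1 library was 2.84% to 4.18%. Neighbouring sites of a gene are not independent, and the sets differ by the rule of recurrence. These intervals cover counting error only, and the shares are descriptions without a test. RpLP1, an acidic stalk protein of the large subunit, had 0, 2 and 9 cDNAs at nucleotide 16 and carried 5 of the 17 sites. RpS28b had 0, 5 and 3 cDNAs at nucleotide 15.

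Translation factor genes held 47 sites in 6 genes, 18 of them each in eEF1alpha1, the factor that brings aminoacyl-tRNA to the ribosome, and in pAbp, the poly(A)-binding protein. eEF1alpha1 had 1, 4 and 13 cDNAs at nucleotide 4153 of 4628 (2R, 11895287, plus strand). The pAbp site with most cDNAs lay in its snoRNA:Psi18S-1347a at nucleotide 47 of 137 (2R, 18142848, plus strand), with 1, 1 and 17 cDNAs, and 10 of the 18 sites lay in this snoRNA. A list of 10 hnRNP and SR protein genes held 13 sites in 3 of them, and SC35, an SR protein gene that is not on the list, held 2. Cytoskeleton genes held 5, chaperones 3, extracellular matrix genes 2 and snoRNP or snRNP protein genes 2. In mbl, a regulator of splicing, a site at nucleotide 127895 of 162828 (2R, 17344443, plus strand) had 1, 3 and 7 cDNAs.

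Mitochondrial transcripts held 131 sites (13.8%), against 13.4% of full-length-only sites, 25.1% of sites of both baits and 4.52% of NHL-only positions of 1 library. mt:lrRNA, the large ribosomal RNA, and mt:CoI, a subunit of cytochrome oxidase, carried 24 sites each, mt:ND4 15 and mt:srRNA 12. Their counts were low, with 5 cDNAs at the leading mt:CoI site (1, 1 and 3) and 6 at that of mt:lrRNA (0, 1 and 5).

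**Figure D3:**
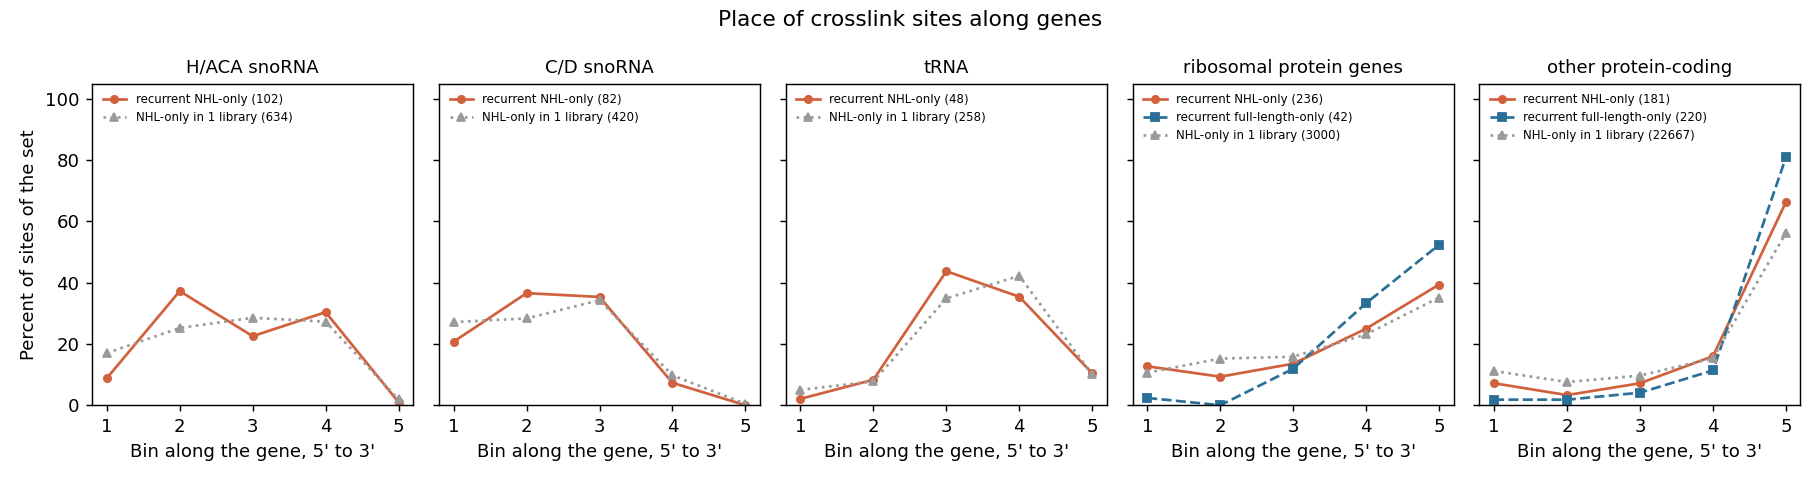
Percent of sites (y axis) in each of 5 bins of equal length along the gene from 5′ to 3′ (x axis) for recurrent NHL-only sites, recurrent full-length-only sites and NHL-only positions of 1 library, in 5 gene groups, with the number of sites in the legend; sets with under 20 sites are not drawn. Bin 5 holds 39.4% of NHL-only sites in ribosomal protein genes and 66.3% in other protein-coding genes.

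Sites were spread over 424 host genes, of which 237 carried 1 site and 65 at least 5. By class these were 240 protein-coding, 85 snoRNA or scaRNA, 39 tRNA and 12 snRNA genes, with the rest in smaller classes. Full-length-only sites had 245 host genes, and the shared hosts made up 23.8% of NHL-only and 41.2% of full-length-only hosts. Sites of both baits had 108 host genes, and 82 of these (75.9%) also hosted NHL-only sites. Beside this, 424 of all 6780 genes with any cDNA hosted NHL-only sites. Many hosts rest on 1 thin site, so the overlaps are descriptions and do not show distinct sets of genes. dom, a chromatin remodeler gene with several snoRNAs in introns, carried 23 sites with 26, 28 and 54 cDNAs, and its snoRNA:Me28S-A2589a had 1, 5 and 7 at nucleotide 49 of 106 (2R, 21325266, plus strand). Sf3b3, a splicing factor gene, carried 14 sites, among them nucleotide 2 of 75 in snoRNA:Me28S-A771 (3L, 830510, minus strand) with 1, 1 and 9 cDNAs. Tudor-SN and snoRNA:Tudor-SN-a carried 18 and 17, and Swim and snoRNA:Or-CD1 11 each, pairs of genes that count the same cDNAs. Sites also lay near each other: 284 of 946 formed 116 runs with at most 5 nucleotides between neighbours, among them 5 sites over 7 nucleotides in snoRNA:Tudor-SN-a (17 NHL cDNAs) and 5 over 13 nucleotides in snoRNA:Psi28S-2562 (31 NHL cDNAs).

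At their other positions, host genes varied in how the 3 groups compared. In snoRNA:Psi18S-1347a the rate was 167, 78.0 and 97.9 cDNAs per 10000 in NHL libraries, 2.04, 21.3 and 4.12 in full-length and 31.9, 51.7 and 82.4 in control libraries. NHL libraries were above full-length libraries throughout, and the NHL and control ranges overlapped. mt:lrRNA had 139, 62.9 and 248 in NHL, 143, 272 and 192 in full-length and 200, 267 and 247 in control libraries, with overlap between all groups. eEF1alpha1 had 61.7 to 83.7 in NHL, 53.8 to 69.2 in full-length and 103 to 153 in control libraries, and the control libraries were the highest.

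**Figure D4:**
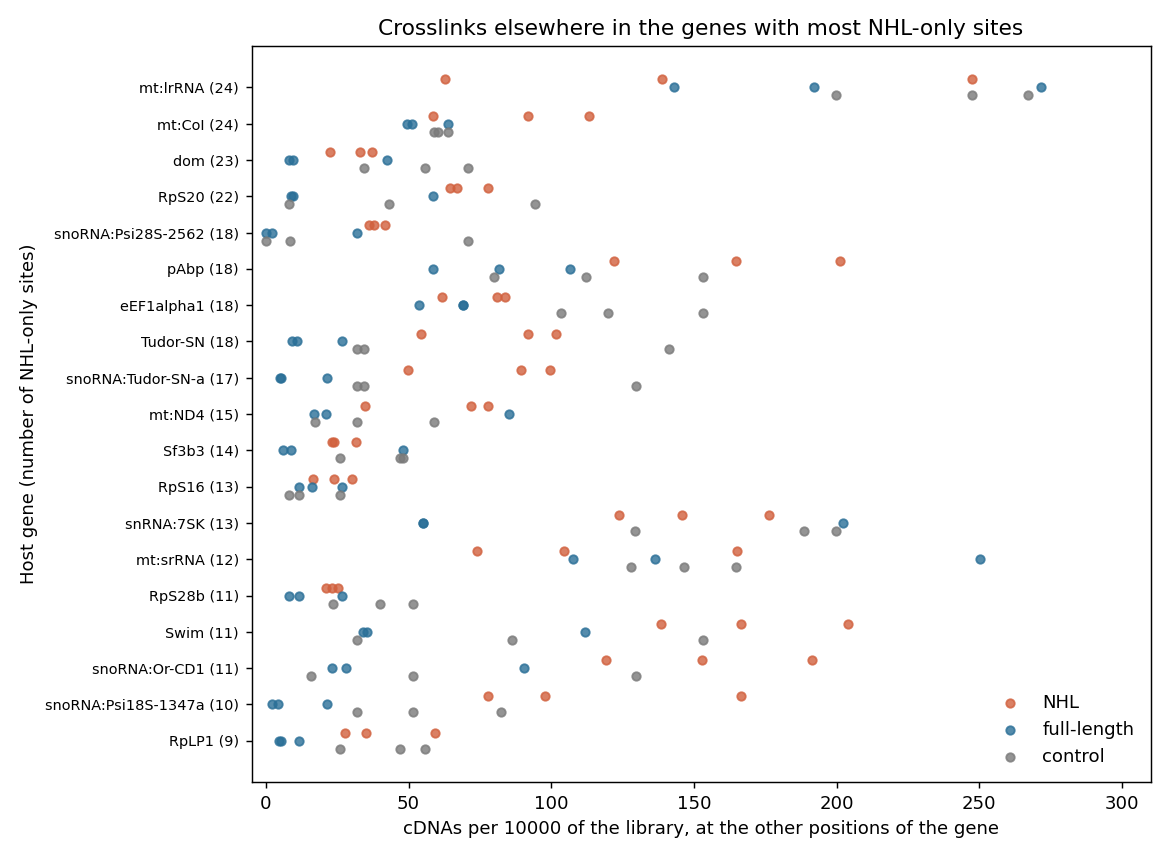
cDNAs per 10000 of each library (x axis) at the other positions of 19 of the 20 genes with most NHL-only sites (y axis, number of sites in brackets), for NHL, full-length and control libraries; each point is a library. In snoRNA:Psi18S-1347a the NHL libraries lie between 78.0 and 167 and the full-length libraries between 2.04 and 21.3, while NHL and control libraries overlap.

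An edgeR quasi-likelihood test on gene counts, fitted over all 9 libraries, included 73 genes, of which 65 hosted a site. Between NHL and full-length libraries 30 genes (41.1% of those tested) passed an adjusted p of 0.05, 18 higher (24.7%) and 12 lower (16.4%) with the NHL domain. Of the 65 tested hosts 24 (36.9%) passed, 17 higher and 7 lower. The rule used this contrast, and the counts are read no further. With the site positions removed, 19 of 52 genes passed. Of these 52 genes 49 were hosts, and 18 hosts passed, so the calls did not gather in hosts. Scaling by total cDNAs in place of TMM gave 23 higher and 2 lower, because it moved the median log2 fold change of all tested genes to 0.91, against 0.13. There were 64 calls without full-length replicate 2, 49 without control replicate 1, 47 without control replicate 2, 15 without NHL replicate 2, and 13 without full-length replicate 1 or 3. Against control libraries 0 of 73 genes (0%) passed in edgeR, with 13 at an unadjusted p under 0.05 and 0 in DESeq2. Without full-length replicate 2, which lets more genes through the filter, 11 genes passed, and 2 passed without NHL replicate 3. The control libraries were shallow, with 849 to 1252 cDNAs. In simulated data with a fold of 4, edgeR called 16 of 35 tested changed genes against control and 30 of 35 against full-length. The 0 calls against control therefore do not show that NHL and control libraries were alike.

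The 5 host genes with the smallest p between NHL and full-length libraries were 3 snoRNAs, snRNA:U12 and sty. Their log2 fold changes are given as descriptions with no p, because the rule used this contrast, and also with the site positions removed. snoRNA:Psi18S-1347a had 83, 68 and 439 cDNAs in NHL, 3, 4 and 9 in full-length and 4, 6 and 7 in control libraries, a log2 fold change of 3.75 (SE 0.60) between the baits and of 3.53 without its sites. snoRNA:Psi28S-2562 had 32, 43 and 235 in NHL and 0, 6 and 5 in full-length libraries (3.10, SE 0.68, and 2.39 without its sites). snRNA:U12 had 43, 63 and 144 in NHL and 9, 1 and 15 in full-length libraries (2.42, SE 0.56, and 2.20 without its sites). snoRNA:Tudor-SN-a had 55, 85 and 226 in NHL and 8, 4 and 11 in full-length libraries (2.82, SE 0.57, and 2.48 without its sites). In contrast sty, an inhibitor of receptor tyrosine kinase signalling that carried 1 site, had 4, 11 and 100 in NHL and 154, 10 and 117 in full-length libraries (-2.90, SE 0.51, and -3.08 without its site). Control libraries had 0, 1 and 6 cDNAs in snoRNA:Psi28S-2562, 1, 3 and 2 in snRNA:U12, 4, 4 and 11 in snoRNA:Tudor-SN-a and 2, 3 and 0 in sty. Between NHL and control libraries the log2 fold changes were smaller. They were 1.20 (SE 0.57) for snoRNA:Psi18S-1347a, 1.43 (0.73) for snoRNA:Psi28S-2562, 1.81 (0.70) for snRNA:U12, 0.60 (0.56) for snoRNA:Tudor-SN-a and 0.18 (0.82) for sty.

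Most sites lay close to a crosslink of the other groups. A full-length or control cDNA ended within 5 nucleotides of 619 sites (65.4%, 62.3% to 68.5%) and within 20 nucleotides of 794 (83.9%, 81.4% to 86.2%), against 23.4% and 41.0% of the NHL-only positions of 1 library. Control cDNAs alone, 3261 in all, lay within 20 nucleotides of 452 sites (47.8%). Within 20 nucleotides of the sites, positions other than the sites took 2199, 2531 and 2095 of every 10000 cDNAs in NHL libraries, 851, 1960 and 1060 in full-length and 1573, 1784 and 2627 in control libraries. The rule did not bear on the other groups equally, since it removed 828 NHL positions for a full-length cDNA and 252 for a control cDNA, and the full-length libraries were deeper. The values of these groups are therefore descriptions without a test. Full-length libraries averaged 1290 ± 589 and control libraries 1995 ± 557 per 10000 (SD, n = 3 each), a difference of -704. Full-length replicate 2 lay between the control libraries, and without it the full-length mean was 956 and the difference -1039. The full-length and control ranges overlapped, as did the NHL and control ranges.

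**Figure D5:**
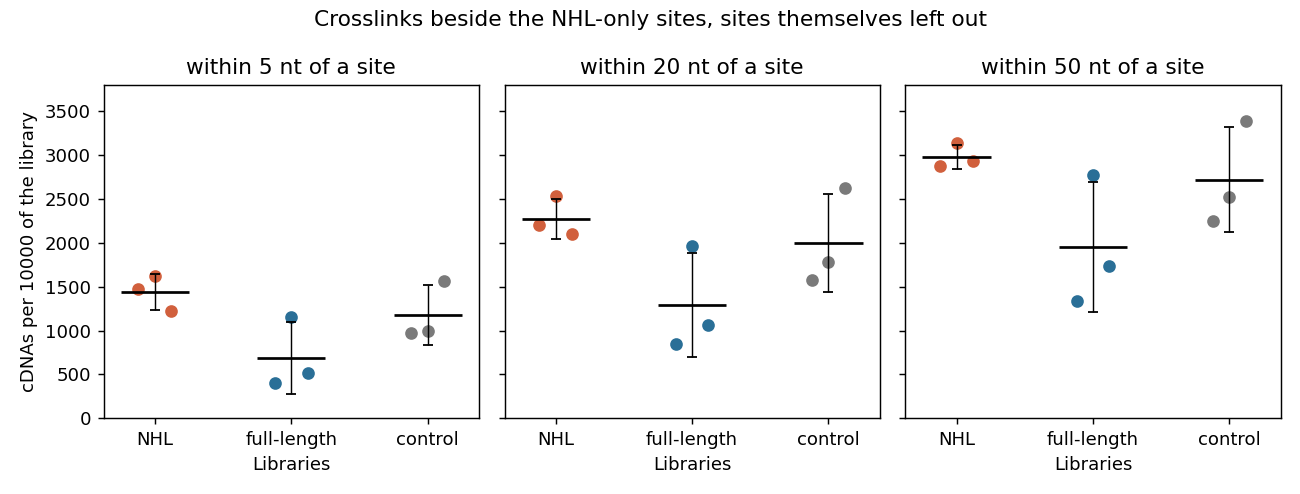
cDNAs per 10000 of the library (y axis) within 5, 20 or 50 nucleotides of an NHL-only site, the sites left out, for NHL, full-length and control libraries; points are libraries, bars the mean and whiskers the SD (n = 3). Within 20 nucleotides NHL libraries lie between 2095 and 2531, full-length between 851 and 1960 and control between 1573 and 2627.

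The threshold fell within the thinly covered range. Just inside it stood 497 sites with 1 cDNA in each of 2 libraries. Just outside stood 385 positions in at least 2 NHL libraries with 1 cDNA in 1 full-length or control library, 321 of them in a full-length library. Among the strongest of these were positions in snRNA:U12 (8, 15 and 33 NHL cDNAs, with 1 in full-length replicate 3), tRNA:Lys-TTT-1-1 (3, 8 and 36, with 1 in control replicate 1), snoRNA:Psi28S-1180 (9, 6 and 30, with 1 in control replicate 3) and snoRNA:Psi28S-2562 (6, 8 and 25, with 1 in full-length replicate 3). All 4 of these had more NHL cDNAs than the strongest NHL-only site. Positions in 1 NHL library that failed by a library had up to 14 cDNAs, in snoRNA:Psi28S-2562 (3R, 20822995, plus strand), all from replicate 3. The next positions of this kind were in snoRNA:Me18S-G1620 with 10 cDNAs, in snoRNA:Psi18S-1347a with 10 and 8, and in snoRNA:Me28S-A1322 with 9, all from the same library.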

How the data were processed

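iCLIP2 libraries were made from 3 NHL, 3 full-length and 3 control samples, grouped by their labels. The authors demultiplexed reads, removed PCR duplicates, trimmed adapters, aligned each replicate to the fly genome (Ensembl release 98) and ran iCount, and the submitters' processing notes name STAR 2.7.3a. The deposited counts are unnormalized numbers of distinct cDNAs per crosslinked nucleotide. The deposited score tables pair positions with genes and hold the adjusted p-value of the peak caller (its false discovery rate), the deposited peaks are positions under 0.05, and the deposited clusters hold summed counts. Values were used as deposited, and no per-sample column was left out (0).

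Sites were selected on the 0-based deposited positions and are printed 1-based. A position in several genes counted for each gene, and its class was taken in the order snoRNA or scaRNA, snRNA, tRNA, rRNA, other non-coding, protein-coding. Place along a gene used RefSeq spans of assembly Release 6, to which 6769 of 6780 genes matched. Of the gene positions, 69205 lay inside and 5 outside their span. No genome sequence or transcript annotation of the build was used, so the 3′ UTR share and the motif share near the sites were not analysed here. Gene counts were tested with edgeR 4.0.16 in R 4.3.3 (TMM, default low-count filter, Benjamini-Hochberg), with DESeq2 1.42.0 as an alternative. Python 3.11.15, pandas 2.3.3, NumPy 2.4.6, SciPy 1.17.1 and matplotlib 3.10.9 were used for the rest. Shares carry exact (Clopper-Pearson) 95% intervals, and libraries held 849 to 40032 cDNAs. A count of 0 at a library allows up to 3 cDNAs, or 0.749 to 35.3 per 10000.

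The edgeR test and the site rule were also run on simulated data. Named host genes were the 20 with most sites, named sites the 15 with most cDNAs among those in all 3 NHL libraries and the 10 with most cDNAs of all, named genes of the test up to 5 hosts per comparison by p, and 5 positions just outside the rule for each reason. Of the named host genes 1 is not reported here. Other genes named were chosen after their values were seen. The sites, gene lists and tests were chosen with earlier results of these data known. The labels call the samples IP1 to IP3, and p-values measure only the spread between these samples.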

Additional observations from a re-analysis of the deposited data

How the results depend on the processing

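The rule sets the number of sites. Requiring all 3 NHL libraries left 95 sites in 75 host genes, 45.3% of them in snoRNA, scaRNA or snRNA genes, and requiring 2 cDNAs in each of 2 libraries left 98 sites in 88 genes with 44.9%. Requiring no full-length or control cDNA within 5 nucleotides left 327 sites in 255 genes, and within 20 nucleotides 152 sites in 147 genes with 26.3%. Joining neighbours gave 24.6%, and counting protein-coding genes first 7.72%. Leaving out a replicate gave 145 to 1195 sites, 106 to 455 host genes and 27.8% to 36.6%. NHL replicate 3 set the lowest count, and full-length replicate 3 the highest. The numbers of genes called between NHL and full-length libraries were 18 without the filter on low counts, 19 with site positions removed and 56 with these groups alone in the fit, where 192 genes passed the filter, and 13 to 64 when a replicate was left out. Against control they were 15 without the filter and 1 with these groups alone, and 0 to 11 when a replicate was left out.

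The difference between full-length and control libraries near the sites stayed negative under each alternative run, at -1039 to -389 per 10000 when a replicate was left out. The rule removed more positions for a full-length than for a control cDNA in all of these runs. The steady sign is therefore not read as a result. Same-numbered samples did not deviate together (correlations of -0.340 to 0.272 over 73 genes). With control libraries of 849 to 1252 cDNAs, these correlations cannot exclude that same-numbered samples were handled together. The study states that non-transfected cells were processed in parallel. With a replicate block edgeR called 22 genes between NHL and full-length and 0 against control, and the mean difference over pairs near the sites was -704. The calls of sty without the low-count filter and of snoRNA:Psi28S-2562 in DESeq2 were lost, and the cause was not tested. The 3′ UTR share and the motif share were not run. Depth limits the absence of a site: 1 cDNA more in a shallow control library would remove it.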

Other observations

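The 39 sites in no annotated gene were spread over chromosomes and unplaced scaffolds. The one with most cDNAs, with 0, 7 and 6 in the NHL libraries, lay on an unplaced scaffold. On chromosome 3L, 4 such sites lay within 12 nucleotides of each other (minus strand, 24300505 to 24300516), with 0, 7 and 1, then 0, 5 and 1, then 2, 0 and 3, then 1, 3 and 1 cDNAs.

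The 35 positions left out in mei-P26 and Act5C met the rest of the rule. The 32 in mei-P26 held 19, 32 and 73 cDNAs in the NHL libraries, and the 3 in Act5C held 1, 2 and 3.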
